A study of Homo sapiens with 8 samples.

Results

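The genes described here are 9 negative-feedback genes of the RAS and ERK pathway, the dual-specificity phosphatase genes DUSP4, DUSP5, DUSP6 and DUSP10, the Sprouty genes SPRY1, SPRY2 and SPRY4, and the Sprouty-related genes SPRED1 and SPRED2, out of 62062 genes annotated on GRCh38 by GENCODE. Peaks of chromatin accessibility from 4 lists were merged into regions wherever they shared at least 1 bp, and a region was assigned to a gene when it overlapped the gene body or the 50 kb on either side of it. By this rule 112 of 126658 merged regions belonged to the 9 genes. The measurements came from MCF10A cells, an immortalised, non-tumorigenic human mammary epithelial line, wild type in all groups, in which accessible DNA was tagged by a transposase and sequenced (ATAC-seq). The groups were cells given the solvent of TGFβ1, a buffer with serum albumin, and cells given 5 ng/ml TGFβ1 for 6, 24 or 72 h, with 2 libraries for each of the 4 conditions and 8 libraries in all. The labels place the solvent cells at time 0, whereas a legend of the study describes a control kept in solvent as long as the longest treatment. All groups were grown with 20 ng/ml EGF, together with horse serum, insulin, hydrocortisone and cholera toxin, so a growth factor that activates the ERK pathway was present in every condition.

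In the ERK pathway, growth factor receptors activate RAS, and RAS activates the kinases RAF, MEK and ERK in sequence. ERK in turn raises the transcription of genes whose products restrain it. DUSP5 and DUSP4 remove the activating phosphates from MAP kinases in the nucleus, DUSP6 does so for ERK in the cytoplasm, and DUSP10 acts mainly on p38 and JNK. Sprouty proteins restrain the signal between receptor and RAF, and SPRED proteins bring neurofibromin, an inactivator of RAS, to the plasma membrane. TGFβ1 signals mainly through SMAD transcription factors and also through MAP kinases, and in mammary epithelial cells it induces epithelial-mesenchymal transition. The accessibility of the feedback genes was therefore followed over the TGFβ1 course.

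The value of a region is its AUC, the area under the peak caller's significance curve, which grows with depth as well as with the width and height of a peak. Each list was called on both libraries of a condition together, so there is 1 value per condition, no spread between replicates and no test. The study states a target depth that was equal for all libraries, but the depth reached behind each list is unknown. The AUC of each TGFβ1 list was divided by a factor that sets its median ratio to solvent to 1 at shared regions within 3 kb of a transcription start site (TSS), which was 1.36, 1.30 and 1.19 for the lists of 6, 24 and 72 h, and every level below is this scaled AUC unless stated otherwise. Regions with a peak in both lists are called higher or lower when the scaled AUC differed by at least 1.5-fold, gained when only the TGFβ1 list had a peak, and lost when only the solvent list had one. The solvent list held 86209 peaks and the TGFβ1 lists 107656 to 118433. For 7 of 8 mammary epithelial marker genes a solvent peak lay within 1 kb of the 5′ end, TP63 being the exception, against 0 of 4 blood and 0 of 2 endothelial marker genes.

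A few regions that were lower, higher or gained at 72 h are given with the sequence of the 201 bases around the summit. The sequences are on the plus strand of GRCh38 and run 5′ to 3′. The regions cover several of the genes. Each had the highest or lowest 72 h ratio of its gene or was among the largest gained regions. The size of the change was thus part of the choice. Capitals mark matches, on either strand, to the letters of AP-1 (TGACTCA and its reverse complement TGAGTCA), ETS (CCGGAAG or CAGGAAG), SMAD (GTCTAGAC or GTCTGGAC) and C/EBP (TTNNGCAA) motifs. Distances run from the 5′ end of the gene in its own direction, so a negative distance lies upstream. The first pair shows distal regions that lost accessibility. The region 41.1 kb upstream of DUSP5 (chr10:110456724-110456924) lies in an intron of the divergent transcript DUSP5-DT, and its window held a SMAD and a C/EBP match. The region 6.04 kb from the 5′ end of DUSP6 (chr12:89346364-89346564) is intergenic, just past the end of the gene, and held a C/EBP and an ETS match.
DUSP5 -41.1 kb: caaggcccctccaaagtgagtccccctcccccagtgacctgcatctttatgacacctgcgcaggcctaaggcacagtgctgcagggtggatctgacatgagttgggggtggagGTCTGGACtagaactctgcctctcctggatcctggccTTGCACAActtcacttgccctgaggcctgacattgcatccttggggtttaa
DUSP6 +6.04 kb: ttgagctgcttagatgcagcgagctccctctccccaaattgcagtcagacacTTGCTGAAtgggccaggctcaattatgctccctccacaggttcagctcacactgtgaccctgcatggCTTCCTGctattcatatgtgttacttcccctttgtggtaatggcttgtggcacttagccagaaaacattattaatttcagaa

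The next set shows regions that gained accessibility. The region at 18.1 kb in an intron of DUSP10 (chr1:221723931-221724131) had no solvent peak and held an AP-1 match. The region at 146 kb, past the far end of SPRED1 (chr15:38398236-38398436), held an AP-1 and an ETS match and lay 55342 bp from its nearest coding TSS, which belongs to FAM98B and not to SPRED1. The region 1.35 kb upstream of SPRY4 (chr5:142327706-142327906), in an intron of the antisense gene SPRY4-AS1, and the gained region at 38.7 kb past DUSP5 (chr10:110536499-110536699), whose nearest coding TSS is that of SMC3, held none of these letters.
DUSP10 +18.1 kb: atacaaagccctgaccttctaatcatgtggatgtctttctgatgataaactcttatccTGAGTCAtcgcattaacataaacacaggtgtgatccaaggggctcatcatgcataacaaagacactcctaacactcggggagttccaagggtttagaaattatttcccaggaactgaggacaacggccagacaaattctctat
SPRED1 +146 kb: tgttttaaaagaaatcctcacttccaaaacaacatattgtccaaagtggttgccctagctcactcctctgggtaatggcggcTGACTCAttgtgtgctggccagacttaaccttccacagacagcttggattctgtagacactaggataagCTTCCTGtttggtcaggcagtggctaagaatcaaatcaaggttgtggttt
SPRY4 -1.35 kb: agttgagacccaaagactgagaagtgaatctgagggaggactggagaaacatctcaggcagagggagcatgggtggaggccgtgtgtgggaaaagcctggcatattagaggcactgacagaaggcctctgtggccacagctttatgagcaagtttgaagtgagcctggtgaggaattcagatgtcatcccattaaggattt
DUSP5 +38.7 kb: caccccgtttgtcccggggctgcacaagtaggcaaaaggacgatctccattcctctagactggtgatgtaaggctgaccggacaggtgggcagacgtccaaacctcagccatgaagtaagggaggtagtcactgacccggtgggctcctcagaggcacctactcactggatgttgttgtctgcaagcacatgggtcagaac

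The promoter of SPRY1 is shown because its accessibility was the lowest against solvent among the 9 promoters. RefSeq has 2 starts in it. The 250 bases upstream of the first (chr4:123396545-123396794, GRCh38.p14) are shown and held 1 C/EBP match. Those upstream of the second (chr4:123398136-123398385) lie under the summit of the promoter region and held 2 ETS matches, and they are not shown because they overlap an untranslated exon.
SPRY1 promoter: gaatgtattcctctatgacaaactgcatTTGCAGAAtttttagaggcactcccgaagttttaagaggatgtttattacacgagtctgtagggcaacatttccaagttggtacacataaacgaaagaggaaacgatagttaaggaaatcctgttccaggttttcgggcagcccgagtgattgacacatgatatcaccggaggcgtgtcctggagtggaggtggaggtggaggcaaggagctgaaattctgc

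Of the 112 regions, 49 lay within 3 kb of a TSS and 63 were distal. The solvent list had a peak in 83 of them, the 6 h list in 101, the 24 h list in 102 and the 72 h list in 99. A peak was present in all 4 lists for 78 regions (69.6%), compared with 62.6% of all merged regions, and in all TGFβ1 lists but not in solvent for 13 (11.6%), compared with 14.3%. For 104 of the 112 regions a member of the group was also the gene with the nearest coding TSS. The only other protein-coding gene within any of the windows was ACTR2, near SPRED2. SPRED2 had the most regions, 21, and SPRY2 the fewest, 5, in windows of 222 and 105 kb.

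**Figure D1:**
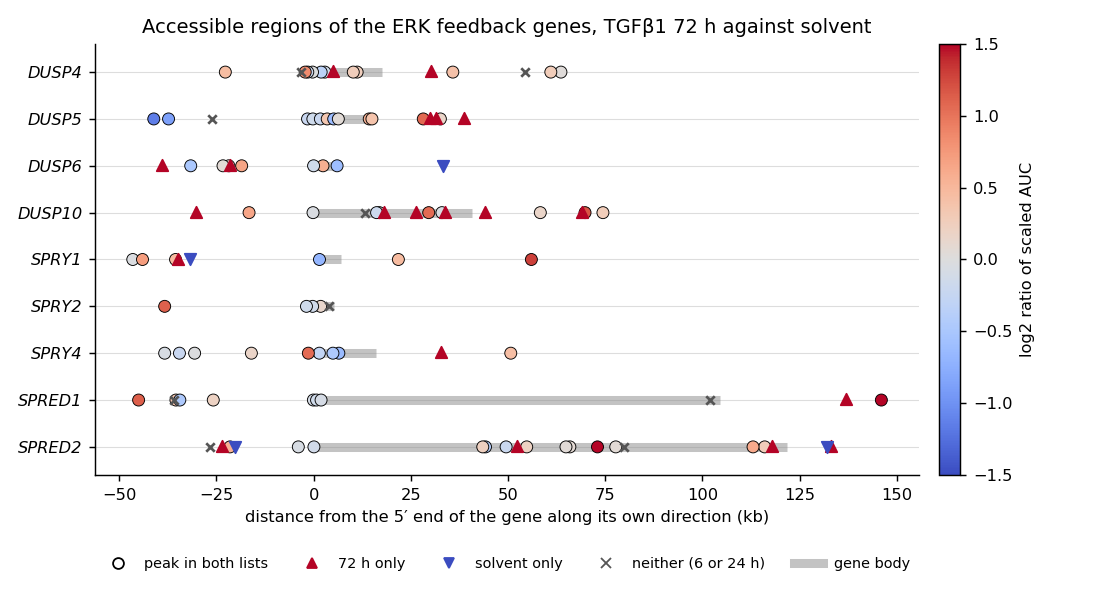
Each symbol is a merged region placed by the distance of its summit from the 5′ end of its gene (x axis, kb, in the direction of the gene), 1 row per gene, with the gene body as a grey bar. Circles, coloured by the log2 ratio of scaled AUC at 72 h to solvent, have a peak in both lists, triangles in 1 of them and crosses in neither. The blue circles far upstream of DUSP5 and at the SPRY1 promoter stand apart from the pale promoters, and DUSP10 and SPRED2 carry red triangles within their gene bodies.

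The share of gained regions around the feedback genes was below that over all regions at each time, a difference that could not be tested. At 6 h, 20 of 103 regions with a peak in either list were gained (19.4%), compared with 22.9% of all regions. At 24 h, 23 of 106 were gained (21.7%), compared with 29.8% of all, and at 72 h 20 of 103 (19.4%), compared with 29.3%. The share in the background grew between 6 and 72 h, whereas that of the members was the same at both times. Among shared regions, 7 of 81 were higher at 6 h (8.64%), compared with 11.7% of all, 14 of 79 at 24 h (17.7%), compared with 20.3%, and 14 of 79 at 72 h (17.7%), compared with 22.9%. These counts depend on the lists, since 8, 11 and 10 regions were gained at the 3 times with lists of equal length, and 34, 31 and 25 were higher without scaling. The shares over all regions were not computed under these alternatives.

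Lost regions made up a larger share around these genes than over all regions at each time, and lower regions did so at 72 h, but both shares rest on few regions. Lost regions numbered 2 at 6 h (1.94%, compared with 0.551% of all regions), 4 at 24 h (3.77%, compared with 1.31%) and 4 at 72 h (3.88%, compared with 2.43%). With lists of equal length 11 were lost at 72 h, and the share of all regions was not computed for those lists. Lower regions numbered 0 of 81 at 6 h (compared with 1.40% of all), 2 of 79 at 24 h (2.53%, compared with 3.22%) and 6 of 79 at 72 h (7.59%, compared with 3.90%). The 2 regions at 24 h were both upstream of DUSP5. With 1 list per condition these counts have no error. A count of 6 falls to 2 when the lists are not scaled, a setting for which the share of all regions was not computed either.

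The split by position gave a like picture of these shares at 72 h. Among distal regions, 15 members were gained (26.3%, compared with 35.4% of all distal regions), 9 of 40 were higher (22.5%, compared with 29.3%) and 3 were lower (7.50%, compared with 4.0%). Within 3 kb of a TSS, 5 were gained (10.9%, compared with 17.8%), 5 of 39 were higher (12.8%, compared with 13.4%) and 3 were lower (7.69%, compared with 3.75%). Over all shared regions the median log2 ratio of the members was 0.09, 0.07 and 0.07 over the 3 times, compared with 0.06, 0.12 and 0.15 for all regions. Among distal regions alone the medians were close, 0.08, 0.24 and 0.27 for members, compared with 0.12, 0.23 and 0.27. Within 3 kb of a TSS they were 0.11, 0.01 and -0.07, compared with 0.00, -0.00 and -0.00. The values over all regions there were fixed by the scaling. Of the 78 regions present throughout, 18 had a higher AUC at every step of the course (23.1%, compared with 22.8% of all) and 8 a lower one (10.3%, compared with 6.73%).

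To learn whether a gene as a whole became more or less accessible, the AUC was summed over all regions of its window, a region without a peak in a list counting as 0. A sum therefore also moves with how many regions were called, and each is given beside its value over the regions with a peak in all 4 lists where that changed its direction. None of the 9 sums differed from solvent by 1.5-fold at any time. The median log2 ratio of the members was 0.07, 0.06 and 0.07 over the 3 times, compared with 0.05, 0.10 and 0.11 over all protein-coding genes with a solvent region. Over regions present in all 4 lists the medians were -0.00, -0.01 and -0.03, compared with -0.00, 0.02 and 0.03 over 18770 coding genes. At 72 h, 5 members had a sum above that in solvent and 4 below it, and 2124 of 18784 coding genes were at least 1.5-fold higher. Without scaling, the sums of those 4 members were above solvent too. Per kb of window, the solvent level was greatest at SPRY4 (266 AUC per kb) and DUSP6 (212) and smallest at SPRED1 (52.8).

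**Figure D2:**
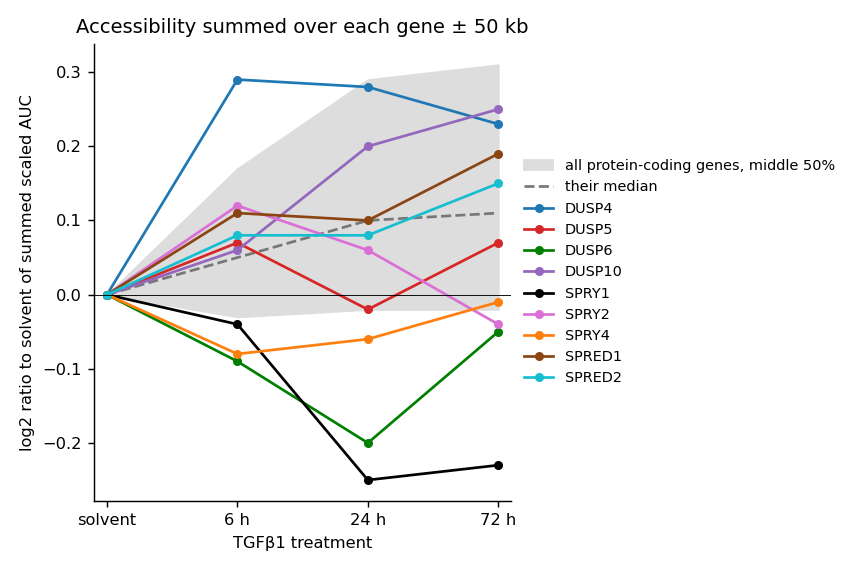
The y axis is the log2 ratio to solvent of the scaled AUC summed over each gene and the 50 kb on either side, and the x axis the treatment. Coloured lines are the 9 genes, the dashed line is the median of all protein-coding genes and the grey band holds their middle 50%. SPRY1 (black) and DUSP6 (green) lie below the band at 24 h, at -0.25 and -0.20.

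Among the phosphatases, DUSP4, a nuclear phosphatase of ERK and JNK, had a summed AUC of 15447 in solvent and 18866, 18751 and 18160 after 6, 24 and 72 h. Its log2 ratio of 0.29 at 6 h was the highest of the 9 genes and higher than in 86.3% of coding genes, and it was 0.23 at 72 h. DUSP10, which prefers p38 and JNK, had 22326, 23310, 25694 and 26490, with a log2 ratio of 0.25 at 72 h. The covered length at DUSP10 grew from 6275 bp in solvent to 9373 bp at 72 h while the mean AUC per covered bp went from 3.56 to 2.83, and of the difference of 4164 in its sum 2644 came from gained regions. Over regions present in all 4 lists the log2 ratios of DUSP10 were -0.08, -0.01 and 0.10, and per base of peak they were -0.26, -0.38 and -0.26, so its direction depends on the measure. DUSP4 kept a log2 ratio of 0.20 at 72 h over the regions present in all lists. Per base of peak, however, its log2 ratios were only 0.01, 0.04 and 0.11. The covered length at DUSP4 was 8418 bp in solvent and 11285 bp at 6 h. With windows of 10 kb its log2 ratio at 72 h was 0.08.

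DUSP5, the nuclear phosphatase specific for ERK, had 17218, 18097, 17040 and 18084 in solvent and at 6, 24 and 72 h, with log2 ratios of 0.07, -0.02 and 0.07. DUSP6, its cytoplasmic counterpart, had 22308, 20987, 19456 and 21612, with log2 ratios of -0.09, -0.20 and -0.05. The lowest level of DUSP6 was at 24 h, where 2.40% of coding genes had a lower ratio. The near-level sum of DUSP5 combined regions that moved in opposite directions, and over the regions present in all lists its log2 ratio at 72 h was -0.12.

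Among the Sprouty genes, whose products act between receptor and RAF, SPRY1 had summed AUCs of 11137 in solvent and 10834, 9366 and 9480 under TGFβ1. Its log2 ratios were -0.04, -0.25 and -0.23, and only 2.00% of coding genes had a lower ratio at 72 h. SPRY2 had 10071, 10962, 10484 and 9827, with log2 ratios of 0.12, 0.06 and -0.04. SPRY1 was thus the lowest of the 9 genes at 24 and 72 h, while SPRY2 moved by little at any time with this window. With regions assigned to the nearest coding TSS, SPRY2 had log2 ratios of 0.21, 0.34 and 0.45. Over the regions present in all lists SPRY1 had -0.25 at 72 h and SPRY2 -0.01 at 24 h.

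SPRY4 had the largest sum in each condition, 30870 in solvent and 29151, 29590 and 30603 under TGFβ1, with log2 ratios of -0.08, -0.06 and -0.01. SPRED1 had 10802, 11683, 11541 and 12360 and a log2 ratio of 0.19 at 72 h. SPRED2 had 23318, 24586, 24717 and 25784 and a log2 ratio of 0.15. Both SPRED genes had sums above solvent at each time with this window. The SPRED1 sum at 72 h was below solvent with windows of 10 kb (-0.09) and with the nearest coding TSS (-0.07). Without scaling, the log2 ratio at 72 h was 0.01 for SPRY1, 0.20 for DUSP6, 0.21 for SPRY2 and 0.23 for SPRY4. The direction of these sums thus rests on the scaling. The 72 h ratio of SPRY1 was also above 0 with windows of 100 kb, at 0.03, and with regions assigned to the nearest coding TSS, at 0.32.

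Each of the 9 genes had a peak over its promoter in every list, and at 24 and 72 h all 9 promoters had a lower scaled AUC than in solvent. This was also the direction of most promoters. The median log2 ratio of the members at 72 h was -0.15, compared with -0.08 over 10798 promoters of coding genes. Over 4225 promoters whose solvent AUC was at least that of the weakest member, 3537, the median was -0.12 and the middle 50% ran from -0.17 to -0.06. Without scaling, 7 of the 9 log2 ratios at 72 h were between 0.09 and 0.24 above 0.

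The SPRY1 promoter was set apart from the rest. Its scaled AUC was 7814 in solvent and 6799, 5471 and 4844 after 6, 24 and 72 h, a steady decrease to 0.620 of the solvent level and a log2 ratio of -0.69. Of 10798 promoters, 142 (1.32%) were lower by 1.5-fold or more at 72 h, and 0.935% had a lower ratio than SPRY1. Among the strong promoters that share was 0.189%. The unscaled AUC was 7814, 9234, 7119 and 5748, a log2 ratio of -0.44 at 72 h, which is below solvent but short of 1.5-fold. The peak was 3281 bp long in solvent and 3164 bp at 72 h, and the AUC per base gave a log2 ratio of -0.57, just short of 1.5-fold.

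The other promoters changed by little. The SPRY4 promoter had a scaled AUC of 12211, 10693, 10194 and 10049, with a log2 ratio of -0.28 at 72 h, where 7.68% of promoters were lower. The DUSP6 promoter had 11938, 10311, 9845 and 10735, with its lowest log2 ratio, -0.28, at 24 h. The DUSP10 promoter, with the largest AUC of the 9 over a peak of 3415 bp, had 15754, 13856, 14387 and 15280 and was within -0.04 of solvent at 72 h. Log2 ratios of the remaining 5 promoters at 72 h were -0.01 for DUSP4, -0.16 for DUSP5, -0.15 for SPRY2, -0.09 for SPRED1 and -0.13 for SPRED2.

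Distal regions upstream of DUSP5 held the largest decrease of the group. The region at -41.1 kb had a scaled AUC of 2468 in solvent and 2068, 1020 and 1110 after 6, 24 and 72 h, a fall to 0.450 of solvent at 72 h. Its neighbour at -37.3 kb, in the same intron of DUSP5-DT, had 1235, 890, 621 and 665, a fall to 0.538. The larger step of the first region came between 6 and 24 h. Its neighbour had log2 ratios of -0.47 at 6 h and -0.99 at 24 h. The unscaled AUC of the neighbour was 1235 in solvent and 1208, 808 and 789 under TGFβ1, so its level at 6 h rests on the scaling. In both regions the 72 h level was close to that at 24 h. The first region stayed lower by 1.5-fold without scaling (-0.91) and per base of peak (-0.77). Just outside the window, at 50.1 kb from the gene, a region had 970, 1081, 1096 and 1416, above solvent at each time. Another region of DUSP5, in an intron at 5.17 kb, was weak and had 264, 372, 211 and 173, above solvent at 6 h and lower only at 72 h.

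On the other side of DUSP5, past the end of the gene, accessibility went up. The region at 28.2 kb had 327, 530, 659 and 688, a log2 ratio of 1.07 at 72 h. The region at 38.7 kb had no peak in solvent and then 538, 1274 and 1616, the largest gained level at 72 h of the 112 regions. Around this gene, the 2 far upstream regions thus fell while regions past its end rose or were gained, and the sum stayed near the solvent level.

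The remaining regions that were lower at 72 h belonged to DUSP6 and SPRY4. The DUSP6 region at 6.04 kb had 2254, 2172, 1510 and 1487, close to solvent at 6 h and 0.660 of it at 72 h. The SPRY4 region at 6.49 kb, in an intron, had 592, 500, 423 and 381, or 0.643 of solvent. Without scaling their log2 ratios were -0.35 and -0.39, below solvent but short of 1.5-fold. The peak's summit height, −log10 p, relative to the median shift at shared regions near a TSS, was lower in all 6 regions called lower and higher in 13 of the 14 called higher at 72 h, the exception being the DUSP4 region at -2.16 kb. Over all regions the same held for 99.9% of those called lower and 98.8% of those called higher.

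Lost regions were weak and none belonged to a promoter of the group. The region 33.2 kb from DUSP6 had 370, 351 and 265 and no peak at 72 h. In SPRED2, the region at 132 kb was found only in solvent (250), the region at -20.1 kb had 272 and 187 and then none, and the region at 43.5 kb lacked a peak at 24 h alone. The region 31.7 kb upstream of SPRY1 was found only in solvent (203). All 5 had a solvent AUC of 203 to 370, near the 200 at which the authors stopped calling peaks, and with a minimum AUC of 400 no region was lost.

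**Figure D3:**
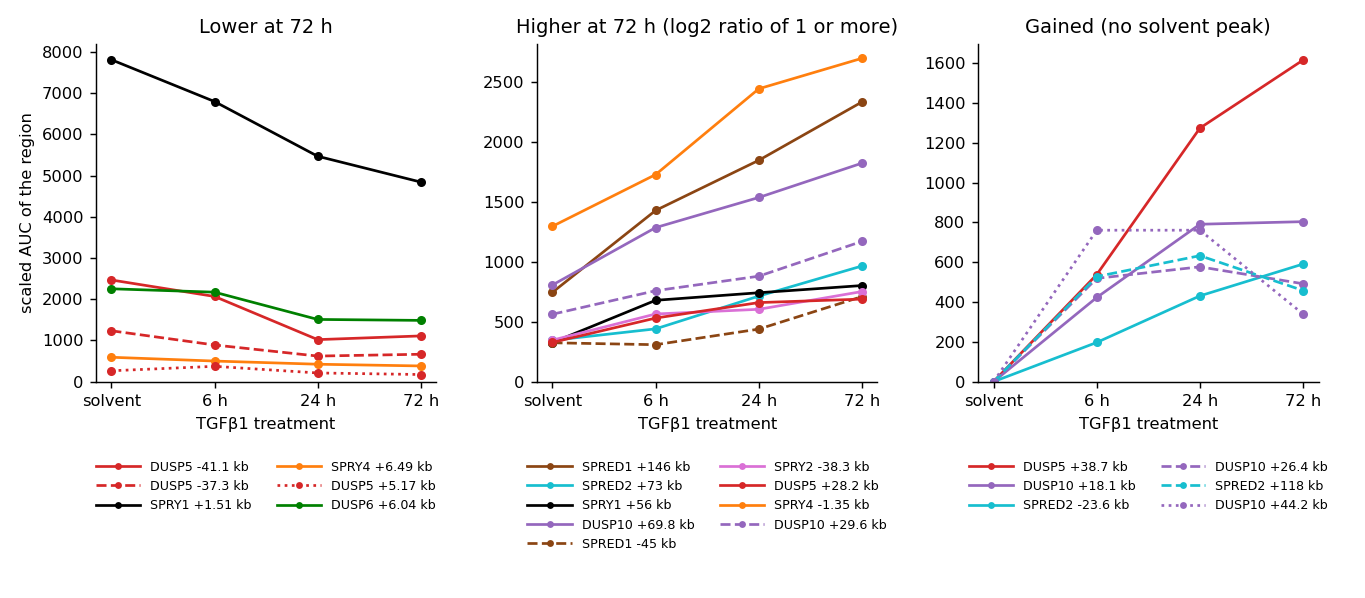
The y axis is the scaled AUC of single regions and the x axis the treatment, for the 6 regions called lower at 72 h (left), the 9 of those called higher whose log2 ratio was 1 or more (middle) and 6 that were gained (right). Labels give the gene and the distance from its 5′ end. The SPRY1 promoter falls from 7814 to 4844, SPRED1 at 146 kb climbs from 745 to 2331, and the DUSP5 region at 38.7 kb climbs from no peak to 1616.

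The highest ratio among shared regions belonged to the region 146 kb from the 5′ end of SPRED1, with 745, 1427, 1845 and 2331, a 3.13-fold increase at 72 h that was already 0.94 on the log2 scale at 6 h. Its peak also widened, from 320 to 707 bp, and per base of peak its log2 ratio was 0.57, just short of 1.5-fold. Upstream of SPRED1, the region at -45.0 kb had 324, 308, 438 and 709 and was higher only at 72 h. In SPRED2, an intronic region at 73.0 kb had 344, 440, 713 and 964, a 2.80-fold increase. The SPRED2 region at 113 kb, also intronic, was already strong at 2078 and reached 3170. Several other regions called higher were as weak in solvent as the lost ones. Their solvent AUC was, for example, 344 at 73.0 kb of SPRED2, 324 at -45.0 kb of SPRED1 and 217 at -2.16 kb of DUSP4. With a minimum AUC of 400, 8 regions were higher at 72 h in place of 14.

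DUSP10 had the most regions that went up. Its region at 69.8 kb, past the end of the gene, had 806, 1284, 1535 and 1821 (2.26-fold), and its intronic region at 29.6 kb had 562, 758, 879 and 1169 (2.08-fold). At 24 h, 7 of its 16 regions were gained (43.8%, compared with 29.8% of all regions). Of 9 shared regions, 4 were higher (44.4%, compared with 20.3%). However, 13 of the 16 regions were distal, and over all distal regions the shares at 24 h were 35.2% gained and 25.5% higher. At 72 h, 6 of 15 DUSP10 regions with a peak in either list were gained, compared with 35.4% of all distal regions. Of the 9 shared regions 3 were then higher, compared with 29.3%. These shares rest on few regions and could not be tested. The gained intronic region at 18.1 kb had 423, 791 and 804 under TGFβ1, a level that was kept. The gained regions at 26.4 kb (519, 577 and 492) and at 44.2 kb (761, 761 and 340) were past their highest level by 72 h, so the gains of this gene followed more than 1 course.

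Among the Sprouty genes, the SPRY4 region 1.35 kb upstream rose from 1295 in solvent to 1726, 2441 and 2695, next to a promoter whose ratio was below 0. Its peak widened from 692 to 1199 bp, and per base of peak its log2 ratio was 0.34. SPRY1 gave the same contrast at a distance, since its region at 56.0 kb had 326, 678, 741 and 801 (2.45-fold) and its region at -44.0 kb 712, 1132, 1024 and 1175. SPRY2 had 1 higher region, at -38.3 kb, with 346, 564, 603 and 751, whose log2 ratio per base was 0.21. Outside the window of SPRY4, 58.7 kb from the gene, a further region had 485, 774, 1109 and 1653. The choice of window thus left out a region that rose, and others that fell. The closest region outside the window of DUSP6, at 57.9 kb, had 345 and 234 and then no peak. That of SPRY2, at 58.6 kb, had 1028, 908, 706 and 834. For the other genes the closest region outside was above solvent at 72 h.

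DUSP6 and DUSP4 each had 1 higher region at 72 h. The DUSP6 region 18.5 kb upstream, near the start of a noncoding gene, had 2016, 2486, 2647 and 3191 (1.58-fold). The DUSP4 region 2.16 kb upstream had 217, 437, 457 and 390 (1.80-fold), and its peak widened from 169 to 409 bp, so that per base its log2 ratio was -0.36. The remaining gained regions in the windows that carried the largest AUC lay in SPRED2, at -23.6 kb (197, 431 and 591) and at 118 kb (528, 633 and 458).

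The letters of the AP-1 motif, bound by JUN and FOS family dimers, were found in the 201 bp around the summit of 36 of the 112 regions (32.1%), compared with 32.3% of all regions. Among members gained or higher at 72 h, 11 of 34 held them (32.4%), compared with 42.1% of all such regions. ETS letters, the motif family of factors that ERK phosphorylates, were in 16 members (14.3%), compared with 12.8%, and C/EBP letters in 14 (12.5%), compared with 12.6%. Among the 34 members gained or higher, ETS letters were in 8 (23.5%, compared with 11.2% of all such regions) and C/EBP letters in 1 (2.94%, compared with 11.6%). Of the 10 members lost or lower at 72 h, 3 held AP-1 letters, compared with 594 of 5942 among all such regions, 3 held ETS letters, compared with 771, and 3 C/EBP letters, compared with 1531. RefSeq promoter sequence was matched for 7 of the 9 genes, without DUSP4 and DUSP5, and in the 250 bases upstream of their 12 starts ETS letters were found in 4, at SPRED1, SPRED2, SPRY1 and SPRY2 (18.2% of 35116 promoters), and AP-1 letters in 0 (4.20%). At SPRED2, SPRY1 and SPRY2 the ETS letters lay upstream of a start inside the gene, and the bases upstream of the outermost start held none.

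The 41 further pathway genes, with 598 regions, gave the range in which the feedback genes fell. The kinases and adaptors of the cascade (17 genes) had a median log2 ratio of summed AUC of 0.06 at 72 h, with 11 above and 6 below solvent. Other feedback or RAS inhibitors (13 genes) had a median of 0.14, with 11 above and 2 below. ERK target genes (11 genes) had a median of -0.00, with 5 above and 6 below. None of the 41 sums differed by 1.5-fold at any time.

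The ends of that range belonged to target genes and inhibitors. FOS, which encodes a partner of JUN in AP-1, had summed AUCs of 46078, 43193, 35035 and 31993, a log2 ratio of -0.53 at 72 h. EGR1, an immediate-early transcription factor gene, had 38307, 33658, 31233 and 30215 (-0.34), and the cyclin D1 gene CCND1 was at -0.17. The highest at 72 h were IER3 (0.48), DUSP16 (0.47) and RASAL2 (0.41), the last of these encoding a RAS GTPase-activating protein. FOS and EGR1 thus lay below SPRY1, the lowest of the 9 feedback genes, on this scale.

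**Figure D4:**
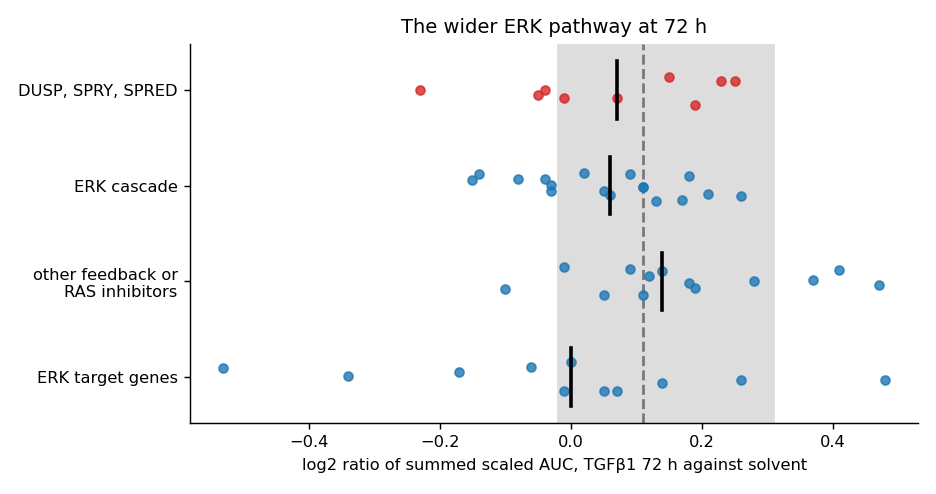
Each point is a gene, placed by the log2 ratio of its summed scaled AUC at 72 h to solvent (x axis), in 4 groups of the ERK pathway (y axis, with vertical jitter for legibility). Black bars are group medians, the dashed line is the median of all protein-coding genes (0.11) and the grey band their middle 50%. SPRY1 is the lowest point of the feedback genes, at -0.23, and FOS the lowest of the targets, at -0.53.

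Likeness of course was measured as the mean absolute difference of the 3 log2 ratios, over 3 times that share the solvent list. Each feedback gene was compared with the other feedback genes and with the 41 pathway genes. The nearest gene was ERRFI1 for DUSP5 (0.010), EGR3 for SPRED2 (0.011), SPRY3 for DUSP4 (0.027), MAPK3 for SPRY2 (0.028), RPS6KA1 for DUSP6 (0.036), ETV4 for DUSP10 (0.039) and DUSP7 for SPRY4 (0.040). The window of SPRY3 held only 1 region. Among these genes, SPRY1 had the most distant nearest gene, CCND1 (0.073). With 3 points per gene and no replicates these differences have no error.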

How the data were processed

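ATAC-seq was carried out on 8 MCF10A libraries, 2 per condition. Per the submitters' processing notes and the study's methods, the authors used Trimmomatic 0.38, Bowtie2 2.4.5, Picard, SAMtools 1.4.1 and Genrich 0.5, mapped to GRCh38 and called peaks on both replicates together. The deposited signal is the AUC of a peak, with a minimum of 200, not scaled between lists. The deposited −log10 p at the summit was used as a height. Conditions of the 4 lists were read from their names. The study states 1 target depth for all libraries, but the lists hold no reads, so the depth behind each list and the counting error are unknown.

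Peaks sharing 1 bp were merged and AUCs summed per region and list. A region is scaled by the median log2 ratio at shared regions within 3 kb of a GENCODE 44 TSS (251784 transcripts). Promoters are regions within 1 kb of a 5′ end. Motifs were searched in 201 bp, and the scripts were checked on simulated data. Python 3.11.15, numpy 2.4.6, pandas 2.3.3 and matplotlib 3.10.9 were used.

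Named were, per gene, the promoter and the regions of highest and lowest 72 h ratio, then the 5 largest gained regions, the 5 most stably gained and every lost one. The other regions called higher or lower at 72 h were added after their values were seen. Members and lists were chosen with earlier results of these data known. The regions of highest and lowest ratio were chosen for these values, which are a description. The nearest pathway genes, except that of SPRED1, which is not reported here, and the 3 highest and 3 lowest pathway genes at 72 h were named too.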

Additional observations from a re-analysis of the deposited data

How the results depend on the processing

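No paired analysis was possible because each list pools both libraries of a condition, and for the same reason no library could be left out. Values are for 6, 24 and 72 h unless stated. Counts of regions under the alternatives have no share over all regions beside them, because it was not computed. With windows of 10 kb, peaks lay in 46 regions in solvent and 55, 56 and 53 under TGFβ1, with 9, 11 and 7 gained, 0, 1 and 0 lost, 1, 7 and 5 higher and 0 lower at 24 h. With windows of 100 kb there were 129 and 158, 164 and 162, with 31, 40 and 39 gained, 24 higher at 72 h and 5 lower at 24 h. With the nearest coding TSS in place of a window there were 229 and 294, 314 and 314, with 67, 93 and 96 gained, 24, 47 and 53 higher, 8 and 11 lost at 24 and 72 h, and 4 and 10 lower at 6 and 24 h. A minimum AUC of 400 left 0, 0 and 0 lost and 3, 4 and 8 higher. With lists cut to equal length 8, 11 and 10 were gained and 7 and 11 lost at 24 and 72 h. Without scaling 34, 31 and 25 were higher and 2 lower at 72 h. Scaling on all shared regions gave 1 and 8 lower at 6 and 24 h, and scaling within 1 kb of coding TSSs 3 lower at 72 h. The AUC per base gave 3, 6 and 7 higher, and 1 and 2 lower at 6 and 72 h, and turned the DUSP4 region at -2.16 kb to -0.36. At 2-fold, 2, 5 and 9 were higher and 1 and 1 lower at 24 and 72 h. With a reciprocal overlap of 50% as shared, 12 and 9 were lost at 6 and 72 h. The other 79 counts and medians stayed within 1.5-fold. The median log2 ratio of the 9 sums nevertheless changed sign, from 0.07 at 72 h to -0.09 with windows of 10 kb. It was -0.07 with scaling on all shared regions and -0.06 per base. With windows of 100 kb it was 0.12, with the nearest coding TSS 0.27 and without scaling 0.32. Of the 27 sums of the 9 genes, 11 changed sign without scaling, 10 with the nearest coding TSS, 8 per base, 0 with lists of equal length and 4 over regions present in all 4 lists, an alternative chosen after seeing the data. The cause of these shifts was not tested.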
